A study of Schizosaccharomyces pombe with 6 samples.

Results

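The cytosolic ribosomal protein genes of fission yeast are described here, taken as every gene whose name starts with *rpl* or *rps* and a digit, with mitochondrially encoded genes left out. This rule found 131 genes among the 7008 listed, 76 of the large and 55 of the small subunit, and all 131 had a value above 0 in every library. A pairwise alignment of their proteins, with copies set at more than 50% identity, placed them in 74 proteins. Of these, 20 had 1 gene, 51 had 2 copies and 3 had 3 copies. The gene annotation of RefSeq names a ribosomal protein for nearly all of them. The exceptions are *rpl701*, listed there as an L7-like subunit of RNase MRP, and *rpl44*, listed as a protein of the L28e family.

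Ribosomal proteins join the ribosomal RNAs in the nucleolus to form the large subunit, which links amino acids, and the small subunit, which reads the mRNA. Their mRNAs are among the most abundant of a growing yeast cell, and cells lower them together when growth slows or stress sets in. In fission yeast their promoters are known for the HomolD box, which takes the place of a TATA box, and for the HomolE box next to it.

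RNA of *Schizosaccharomyces pombe* was sequenced in 6 conditions, with 1 library each. Heat-stressed wild type cells (36°C, 15 minutes), *mas5Δ* cells and *ssa2Δ* cells were each compared with wild type cells, all in rich medium and, apart from the heat stress, at 24°C. *nmt1:hsf1* cells were compared with wild type cells, both in minimal medium without thiamine at 24°C. Mas5 is an Hsp40 co-chaperone and Ssa2 an Hsp70 chaperone, and in the mutants *ura4+* stands in place of the gene. In *nmt1:hsf1* cells the thiamine-repressible *nmt1* promoter replaces the promoter of *hsf1*, the gene of the heat shock transcription factor, at its own locus, so Hsf1 is overproduced without heat. The comparisons ask how far the chaperone mutants and Hsf1-overproducing cells take on the expression profile of heat-stressed cells.

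Values are FPKM, fragments scaled to the length of the transcript and to the mapped fragments of the library, and each comparison was scaled by the authors on its own. The heat stress, *mas5Δ* and *ssa2Δ* comparisons use the same wild type library, so they are not independent. No condition has a replicate, so no difference could be set against the spread between replicates. The values do not show the number of reads, so the counting error of a gene is unknown as well. Summed FPKM lay between 764347 and 1081090 per library. The altered genes bore out the labels, with 36.3 FPKM for *mas5* in *mas5Δ* cells against 470.3 in wild type, and 54.95 FPKM for *ssa2* in *ssa2Δ* cells against 2960.5 in wild type. *hsf1* had 922 FPKM in *nmt1:hsf1* cells against 93.4 in wild type. In the *nmt1:hsf1* table the columns carry no sample names and their order was read as in the other tables, which is the order in which *hsf1* is higher in *nmt1:hsf1* cells. The mRNA of Hsp104, a disaggregase that heat induces, was higher by 6.07 on the log2 scale in heat stress, 3.43 in *mas5Δ*, 4.51 in *ssa2Δ* and 0.43 in *nmt1:hsf1* cells. In minimal medium it had 279.5 FPKM in *nmt1:hsf1* cells and 207.9 FPKM in wild type. Wild type in rich medium had 43.2 FPKM in the heat stress comparison, which was scaled on its own.

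Ribosomal protein mRNAs were lower in all 4 comparisons, in nearly every member. The median log2 ratio over the 131 genes was -0.65 in heat-stressed against unstressed wild type cells, -0.86 in *mas5Δ*, -0.52 in *ssa2Δ* and -1.56 in *nmt1:hsf1* cells, each against wild type. The median over all genes with a ratio was 0.01, 0.04, 0.05 and 0.09 in the same comparisons. Every member was below its wild type value in heat-stressed, *mas5Δ* and *ssa2Δ* cells, and 130 of the 131 were in *nmt1:hsf1* cells. The exception was *rpl1603*. FPKM is a relative measure, so fewer ribosomal protein mRNAs per cell and more of other mRNAs cannot be told apart.

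**Figure D1:**
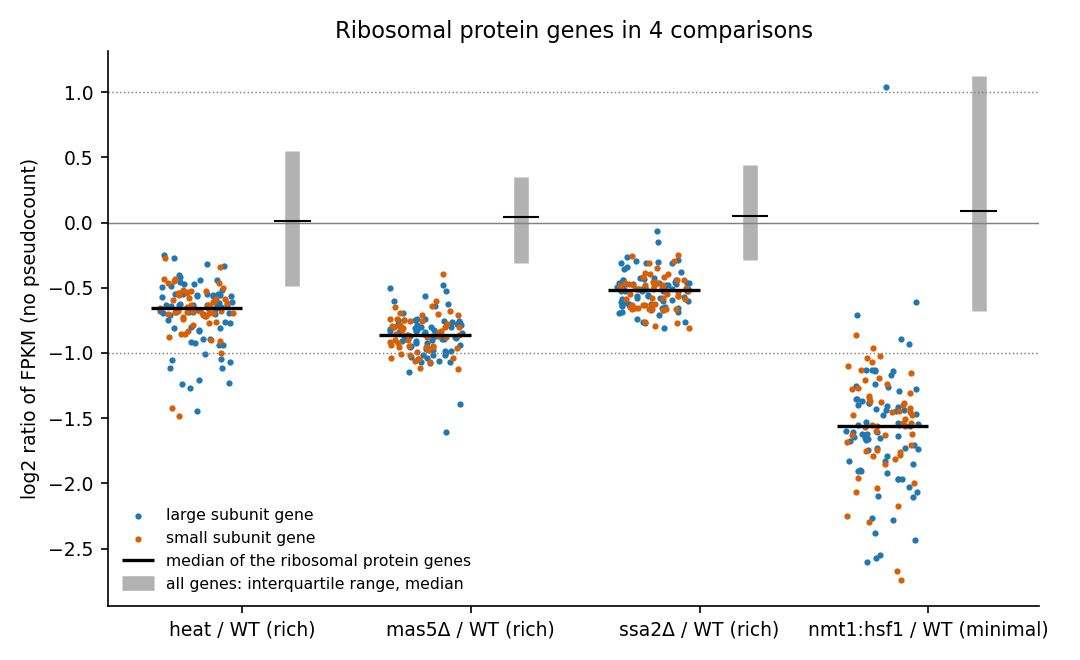
Log2 ratio of FPKM (vertical axis, no pseudocount) of the 131 ribosomal protein genes in the 4 comparisons, 1 point per gene, with grey bars for the interquartile range of all genes and black lines for medians. The points lie below 0 in each comparison, with medians of -0.65, -0.86, -0.52 and -1.56, except *rpl1603* at 1.04 in *nmt1:hsf1* cells.

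How many of these genes passed 2-fold differed more between comparisons than the medians do. In heat stress 14 members were more than 2-fold lower and 0 higher, while 10.3% of all genes were lower and 14.1% higher by that much. In *mas5Δ* cells 22 members were more than 2-fold lower and 0 higher, against 5.15% of all genes lower and 7.25% higher. In *ssa2Δ* cells 0 members passed 2-fold in either direction, against 4.14% of all genes lower and 10.9% higher. In *nmt1:hsf1* cells 124 members were more than 2-fold lower and 1 higher, against 16.7% of all genes lower and 27.1% higher. The share of members more than 2-fold lower was thus near the background in heat stress, above it in *mas5Δ* and far above it in *nmt1:hsf1* cells. Most members lay short of 2-fold in heat stress and the chaperone mutants, so the count moved with the limit. At 1.5-fold 88 members were lower in heat-stressed, 126 in *mas5Δ*, 44 in *ssa2Δ* and 130 in *nmt1:hsf1* cells, against 21.2%, 14.3%, 11.4% and 27.6% of all genes. At 3-fold 0 members were lower in heat-stressed, 1 in *mas5Δ*, 0 in *ssa2Δ* and 62 in *nmt1:hsf1* cells, against 3.92%, 1.7%, 1.81% and 7.97% of all genes.

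The members lay close to each other. In heat stress the interquartile range of the members lay between -0.77 and -0.55, while that of all genes lay between -0.49 and 0.55. In *mas5Δ* cells the interquartile range ran from -0.95 to -0.78, and in *ssa2Δ* cells from -0.63 to -0.46. The widest, from -1.79 to -1.35, was that of *nmt1:hsf1* cells. Within 0.5 of the members' median lay 124 of the 131 genes in heat stress, 129 in *mas5Δ*, 131 in *ssa2Δ* and 106 in *nmt1:hsf1* cells. The range of all genes also covers genes of low level. In unstressed cells of the heat stress comparison, genes above 0 had a median of 30.4 FPKM and the members 2520.3 FPKM. The nuclear genes of mitochondrial ribosomal proteins had an interquartile range from -0.25 to 0.09 in heat stress.

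In each library the ribosomal protein genes were also weighed as 1 group, by their part of the summed FPKM, a share that does not depend on how a table was scaled. They held 22.7% of the sum in heat-stressed, 26.1% in *mas5Δ* and 27.5% in *ssa2Δ* cells, against 38.3% in wild type cells in rich medium. They held 11.8% in *nmt1:hsf1* cells against 25.4% in wild type cells in minimal medium. The 10 highest other genes of each library held 14.0% in heat-stressed, 7.97% in *mas5Δ* and 6.64% in *ssa2Δ* cells, against 5.43% in wild type, and 11.7% in *nmt1:hsf1* cells against 9.34% in wild type. Large subunit genes made up 6.52% and small subunit genes 5.32% of the sum in *nmt1:hsf1* cells, against 14.0% and 11.4% in wild type. Among the 100 genes of highest FPKM were 46 members in heat-stressed, 56 in *mas5Δ* and 55 in *ssa2Δ* cells, against 77 in wild type. There were 26 in *nmt1:hsf1* cells, against 55 in wild type. A ribosomal protein gene had the highest FPKM of all genes only in wild type cells in rich medium. The highest member was 18th in heat-stressed, 10th in *mas5Δ*, 8th in *ssa2Δ* and 23rd in *nmt1:hsf1* cells, and 13th in wild type cells in minimal medium.

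**Figure D2:**
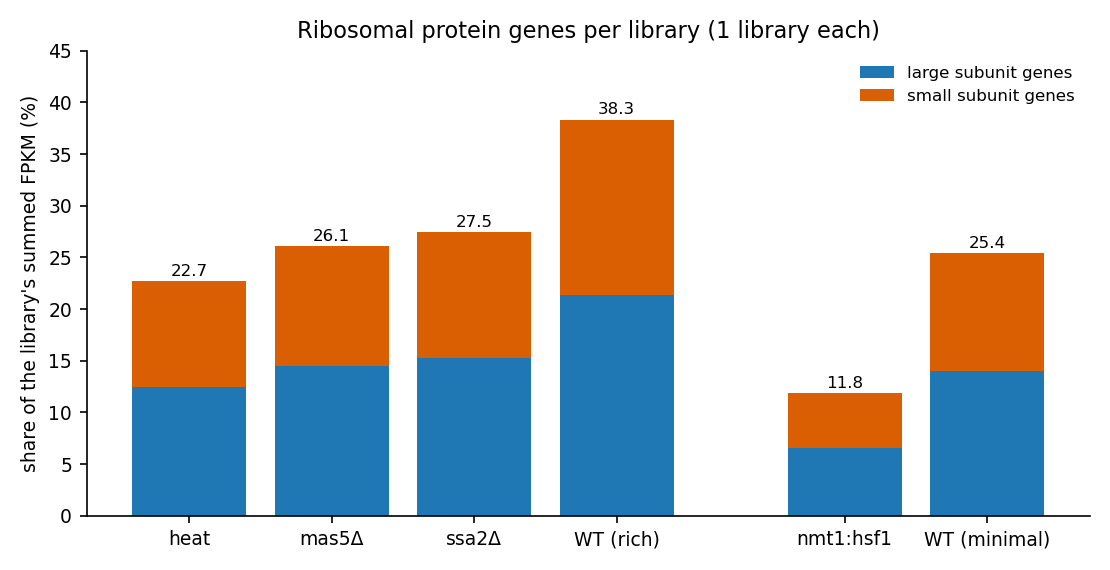
Share of the summed FPKM of each library held by ribosomal protein genes (vertical axis, percent), 1 bar per library, split into large and small subunit genes. Wild type cells in rich medium stand highest at 38.3% and *nmt1:hsf1* cells lowest at 11.8%, while wild type cells in minimal medium, at 25.4%, lie among the other 3.

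The wild type library in rich medium stood apart from the wild type library in minimal medium in this share, and 3 of the 4 comparisons rest on it. Set against wild type in minimal medium, each library scaled to the same summed FPKM, the median log2 ratio of the members was -0.16 in heat-stressed cells, 0.031 in *mas5Δ* and 0.12 in *ssa2Δ* cells. Over all genes that median was -0.19, 0.19 and 0.01. Below wild type in minimal medium were then 102 members in heat-stressed, 51 in *mas5Δ* and 17 in *ssa2Δ* cells, and 1, 0 and 0 were more than 2-fold lower, against 10.2%, 3.95% and 5.58% of all genes. This alternative was chosen after seeing the data, and in it medium and condition cannot be told apart. The lower values in heat stress and in the chaperone mutants thus hold against 1 wild type library, and whether another library of the same medium would give them was not tested. The *nmt1:hsf1* comparison does not use the wild type library in rich medium.

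Both subunits moved alike. The median of the large subunit genes was -0.65 in heat stress, -0.87 in *mas5Δ*, -0.52 in *ssa2Δ* and -1.61 in *nmt1:hsf1* cells. That of the small subunit genes was -0.65, -0.86, -0.52 and -1.54 in the same order. More than 2-fold lower in *nmt1:hsf1* cells were 71 of 76 large and 53 of 55 small subunit genes, against 16.7% of all genes.

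Most groups by place in the ribosome had medians near that of all members. The genes of the stalks and their bases lay furthest from it in heat stress, at -0.97 against -0.65. The genes of the 5S ribonucleoprotein (uL5 and uL18, the proteins that carry 5S RNA into the large subunit) kept the narrowest range. Their 4 genes lay between -0.80 and -0.54 in heat stress and between -1.90 and -1.60 in *nmt1:hsf1* cells. The 8 genes at the mRNA entry and the decoding site (uS3, uS4, uS5, uS12 and eS30) had a median of -0.63 in heat stress, -0.79 in *mas5Δ*, -0.44 in *ssa2Δ* and -1.38 in *nmt1:hsf1* cells. The 4 genes of the stalks and their bases (uL1 and uL11, which guide tRNA and translation factors) had medians of -0.97, -0.95, -0.51 and -1.70. The genes at the decoding site thus lay somewhat above the median of all members in each comparison, and the stalk genes below it in all but *ssa2Δ* cells. The 7 genes at the exit tunnel had medians of -0.67, -0.87, -0.61 and -1.55, and the 7 around the peptidyl transferase centre -0.77, -0.87, -0.43 and -1.65. The 12 genes of the mRNA exit and platform had medians of -0.67, -0.87, -0.64 and -1.56. Every gene of these groups was below wild type throughout, and the stalk genes had the lowest median of the groups in heat stress, *mas5Δ* and *nmt1:hsf1* cells. In heat stress the copies of uL1 and uL11 lay apart. *rpl102* was at -1.23 and *rpl1202* at -1.27, against *rpl101* at -0.71 and *rpl1201* at -0.56. Of the 50-base stretches (the read length) of the *rpl1201* and *rpl1202* mRNAs, 85.7% and 70.6% are also found elsewhere, so their ratios are uncertain.

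The levels themselves ranged widely. In wild type cells in rich medium, with the values of the heat stress table, the members ran from 55.8 to 7753 FPKM around a median of 2520.3. The 5 highest were *rpl29* (7753 FPKM), *rps20* (7397), *rps2502* (7343), *rpl3401* (7239.7) and *rpl42* (6586). FPKM is per length of transcript. The 5 lowest were *rpl1603* (55.8), *rpl3002* (376), *rpl3402* (414), *rpl302* (423) and *rpl1202* (447). All 5 of these belong to proteins with a further, more abundant copy, and neighbours in the order cannot be separated with 1 library. The levels of *rpl302* and *rpl1202* are uncertain, since 56.1% and 70.6% of the 50-base stretches of their mRNAs, the length of a read, are also found elsewhere. The 20 genes that are the only copy of their protein had a median of 4426 FPKM, against 2302 for the 111 genes with copies. Levels went loosely with the ratios. Over the 131 genes, Spearman's rho between the log2 ratio and the level in a wild type library that the comparison did not use was 0.30 in heat stress, 0.24 in *mas5Δ*, 0.08 in *ssa2Δ* and 0.35 in *nmt1:hsf1* cells. The less abundant members thus tended to lie lower in heat stress, *mas5Δ* and *nmt1:hsf1* cells, and hardly did in *ssa2Δ* cells. In wild type cells in minimal medium the order of the levels was almost the same, with a Spearman's rho of 0.98 over the 131 genes.

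Heat stress had its lowest ratios in single copies of duplicated proteins. *rps2601*, a gene of eS26 at the mRNA exit channel, had 649.5 FPKM in heat-stressed and 1815 FPKM in unstressed cells, a log2 ratio of -1.48. *rpl3402*, a gene of eL34, had 152 against 414 FPKM (-1.44). *rps1401*, a gene of uS11 on the platform of the small subunit, had 439 against 1176 FPKM (-1.42). *rpl1202*, a gene of uL11 at the base of the stalk, had 185 against 447 FPKM (-1.27), and *rpl1603*, a gene of uL13, 23.6 against 55.8 FPKM (-1.24). In each of these 5 another copy of the same protein was nearer to wild type. At the other end stood *rpl3002* (eL30), with 317 FPKM in heat-stressed and 376 FPKM in unstressed cells, a log2 ratio of -0.25. *rps2602*, the other eS26 gene, had 1897 against 2290.1 FPKM (-0.27), and *rpl3702* (eL37) 1127 against 1362 FPKM (-0.27). *rpl301* (uL3, near the peptidyl transferase centre) was at -0.32 and *rpl402* (uL4, at the exit tunnel) at -0.34.

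In *mas5Δ* cells the ratios were lowest for *rpl1603*, with 20.6 FPKM against 62.7 FPKM in wild type (-1.60). *rpl1002*, a gene of uL16, a protein that joins the large subunit late, had 405 FPKM in *mas5Δ* and 1059.9 FPKM in wild type cells (-1.39). *rpl35a* (eL33) followed at -1.15, *rps1502* (uS19) at -1.13 and *rps403* (eS4) at -1.11. The highest were *rps3001* (eS30) at -0.39, *rpl35b* (eL33) at -0.48, *rpl4302* (eL43) at -0.50, *rpl102* (uL1) at -0.52 and *rpl13* (eL13) at -0.56. *rpl35a* and *rpl35b*, both genes of eL33, thus stand at the 2 ends of the order.

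In *ssa2Δ* cells the lowest were *rpl44* at -0.81, with 2362 FPKM against 4139 FPKM in wild type, and *rps403* at -0.81, with 919 against 1606 FPKM. *rps1502* was at -0.79, *rpl35a* at -0.77 and *rps402* (eS4) at -0.77. Among the highest were *rpl3002* at -0.07, with 364 against 382 FPKM, *rpl35b* at -0.15, *rps3001* at -0.25 and *rpl4101* (eL41) at -0.26. *rps403*, *rps1502* and *rpl35a* were thus among the 5 lowest and *rps3001* and *rpl35b* among the 5 highest in both chaperone mutants, which share their wild type library.

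*rps2601* was lowest in *nmt1:hsf1* cells, with 185 FPKM against 1237 FPKM in wild type, a log2 ratio of -2.74. *rps403* had 166 against 1055 FPKM (-2.67), *rpl702* (uL30) 121 against 735 FPKM (-2.60), *rpl1002* 84.0 against 501 FPKM (-2.58) and *rpl3002* 38.7 against 227 FPKM (-2.55). Apart from *rpl1603*, the genes nearest to wild type were *rpl13* with 1321 against 2016 FPKM (-0.61) and *rpl4101* with 1876 against 3062 FPKM (-0.71). *rps23* (uS12, at the decoding site) was at -0.87, *rpl4102* (eL41) at -0.89, *rpl22* at -0.93 and *rps3001* at -0.97. These 6 and *rpl1603* were the 7 members that did not pass 2-fold downward. *rpl3002* was thus the member nearest to wild type in heat stress and in *ssa2Δ* cells and among the 5 lowest in *nmt1:hsf1* cells.

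Over the members, the log2 ratio of *nmt1:hsf1* cells went loosely with those of the comparisons that share no library with it. Pearson's r over the 131 genes was 0.16 with heat stress, 0.27 with *mas5Δ* and 0.18 with *ssa2Δ*, and Spearman's rho was 0.23, 0.54 and 0.26. Without *rpl1603* Pearson's r was 0.32, 0.61 and 0.30. These are descriptions across genes, which are not independent of each other, since copies share sequence and the genes share the way they were counted.

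The copies are close to each other in sequence, with a median protein identity of 97.5%, identical proteins in 14 cases and the lowest identity, 79.5%, between *rpl3001* and *rpl3002*. Of the 54 proteins with copies, most had copies that stayed within 0.5 of each other. The difference between the highest and the lowest copy had a median of 0.24 on the log2 scale in heat stress, 0.13 in *mas5Δ*, 0.13 in *ssa2Δ* and 0.37 in *nmt1:hsf1* cells. It exceeded 0.5 in 10 proteins in heat stress, 3 in *mas5Δ*, 1 in *ssa2Δ* and 21 in *nmt1:hsf1* cells. It exceeded 1 in 1, 0, 0 and 7 proteins. At the median, copies of a protein were about as far apart as genes of different proteins. The median absolute difference over the 60 pairs of copies was 0.22 in heat stress, 0.13 in *mas5Δ*, 0.13 in *ssa2Δ* and 0.37 in *nmt1:hsf1* cells, against 0.18, 0.13, 0.13 and 0.36 over the 8455 pairs of different proteins.

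**Figure D3:**
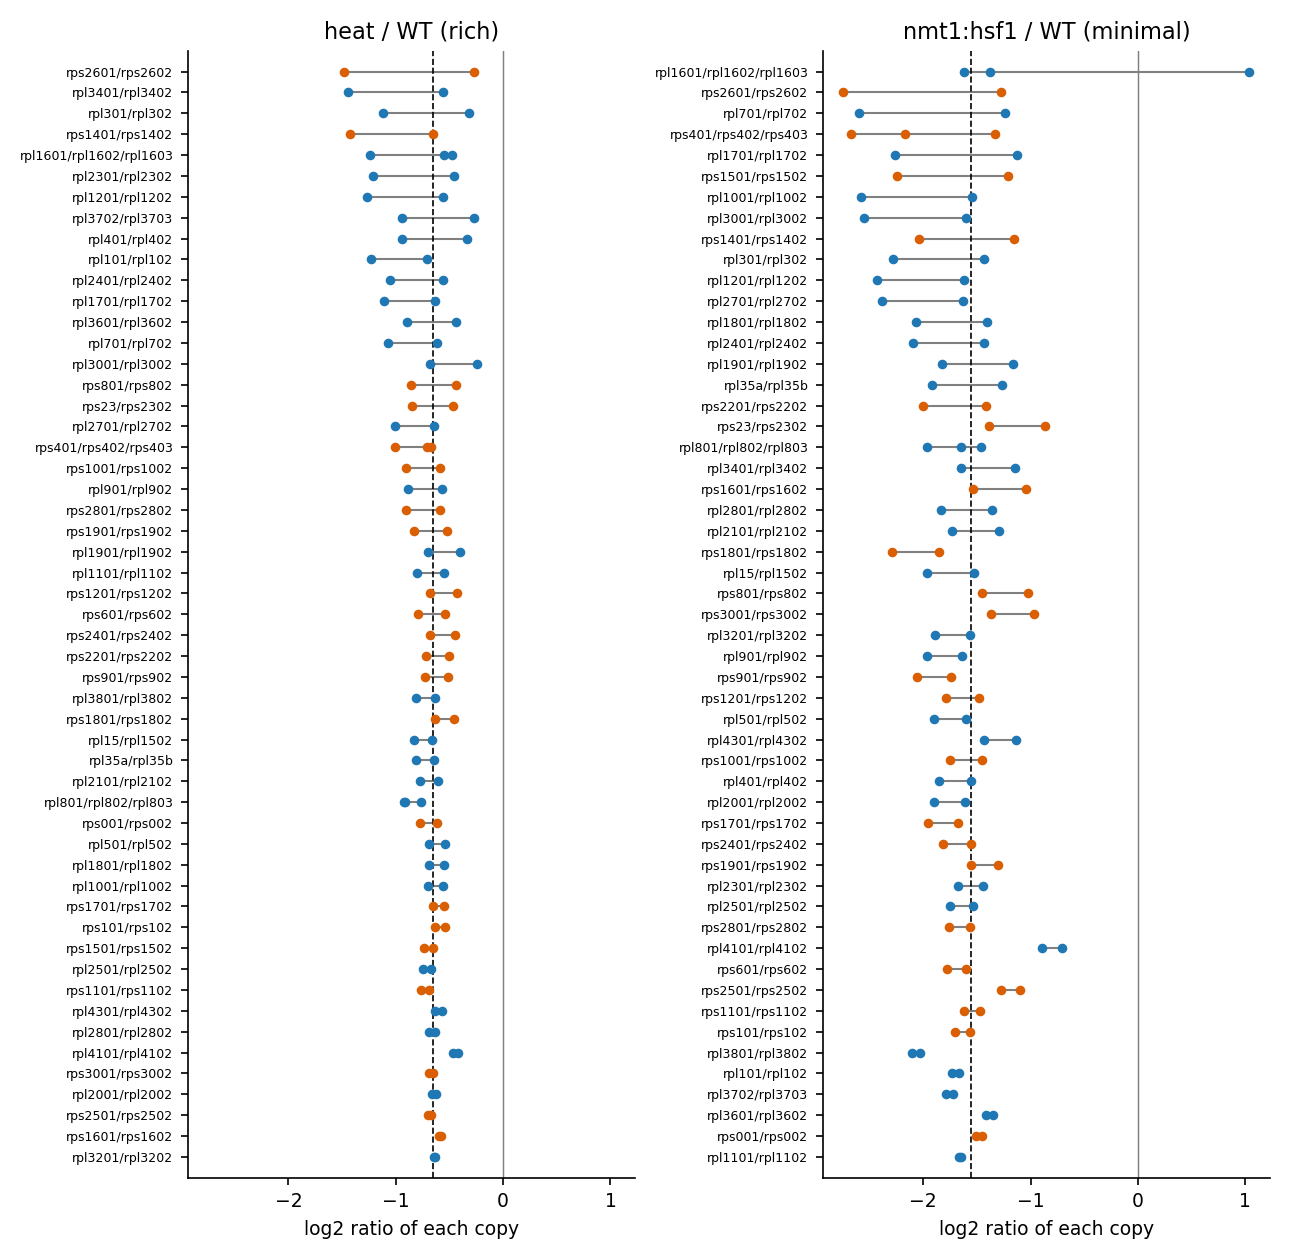
Log2 ratio of each copy (horizontal axis) of proteins with 2 or 3 copies (all but 1 of them), in heat stress (left) and *nmt1:hsf1* cells (right), with a line joining the copies and the dashed line at the median of all members. Proteins are ordered by the difference between their copies, which is largest for eS26 in heat stress (1.21) and for uL13 in *nmt1:hsf1* cells (2.66).

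The copy that was more abundant remained so in most proteins. In 48 of the 54 the same copy was highest in all 6 libraries. The 6 exceptions were eL24, eL27, uL18, eS10, eS12 and uS4, and in wild type cells in rich medium the highest copy held at most 56.9% of the protein's FPKM in them. The copy that was lower in the other wild type library, one that the comparison did not use, had the lower ratio in 33 of the 51 proteins with 2 copies in heat stress, 31 in *mas5Δ*, 26 in *ssa2Δ* and 30 in *nmt1:hsf1* cells. Summing the FPKM of the copies first gave medians over the 74 proteins of -0.66, -0.88, -0.52 and -1.57.

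The copies can be told apart by their reads to different degrees. The genes of 38 of the 54 proteins share no stretch of 50 bases, the read length, in their annotated mRNAs. The genes of 4 proteins share more than 10% of such stretches. Of all 50-base stretches, for example, 85.7% of *rpl1201* (uL11), 66.8% of *rpl301* (uL3) and 41.3% of *rpl1002* (uL16) were also found elsewhere. How the authors' counting divided reads among these copies is not given in the sources used here, so their ratios are uncertain. In 54 members the deposited locus also holds another gene, and without strand the reads of overlapping genes cannot be told apart. The 77 members alone in their locus had medians of -0.64, -0.86, -0.51 and -1.55. More than 2-fold lower were 7.79% of them in heat-stressed, 10.4% in *mas5Δ*, 0 in *ssa2Δ* and 97.4% in *nmt1:hsf1* cells. Of the 54 that share a locus 14.8%, 25.9%, 0 and 90.7% were. Of all genes 10.3%, 5.15%, 4.14% and 16.7% were. The share among members alone in their locus was thus below that of all genes in heat stress. It was above that of all genes in *mas5Δ* and *nmt1:hsf1* cells. The shares past 2-fold in heat stress and *mas5Δ* were thus higher among members that share a locus, and the part of the other genes in this was not tested.

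Promoters were read from the RefSeq genome (assembly ASM294v3), over 250 bases before and 50 bases after each annotated transcript start. The HomolD box, searched as CAGTCACA or its reverse complement TGTGACTG, was in 84 of the 131 members (64.1%) and in 137 of 5112 protein-coding genes (2.68%), members included. The HomolE box, searched by its first 8 letters as ACCCTACC or GGTAGGGT, was in 40 members (30.5%) and 83 protein-coding genes (1.62%). Both boxes were in 23 members (17.6%) and in 29 protein-coding genes (0.567%). HomolD matches started at a median of 50.5 bases and HomolE matches at a median of 70 bases before the transcript start. The first 7 letters of HomolD, CAGTCAC, were searched after reading the windows and were in 121 members (92.4%) and 241 protein-coding genes (4.71%). A match is a description of the letters, and neighbouring genes that share a promoter are counted for each gene.

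**Figure D4:**
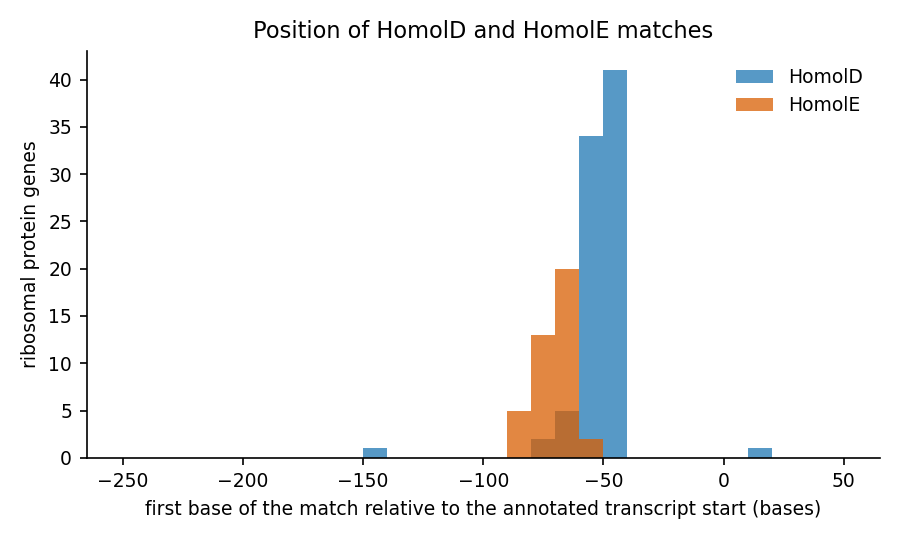
Number of ribosomal protein genes (vertical axis) by the position of the first base of the last HomolD or HomolE match in the promoter, relative to the annotated transcript start (horizontal axis, bases, bins of 10). HomolD matches gather about a median of -50.5 and HomolE matches about a median of -70, upstream of HomolD.

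The promoters of the copies of uL13, eS26, eL33 and eL34 are shown because these genes hold many of the lowest and highest ratios. Each window runs from 100 to 21 bases before the annotated transcript start, 5′ to 3′ on the strand of the gene. Capitals mark HomolD, HomolE and, where the letter after it differs, the 7 letters CAGTCAC or their reverse complement. The windows of uL13 are *rpl1601* (II:624076-624155, minus strand), *rpl1602* (I:4097226-4097305, plus strand) and *rpl1603* (II:3443154-3443233, plus strand).
rpl1601: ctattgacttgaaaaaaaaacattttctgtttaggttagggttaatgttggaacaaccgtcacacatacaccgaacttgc
rpl1602: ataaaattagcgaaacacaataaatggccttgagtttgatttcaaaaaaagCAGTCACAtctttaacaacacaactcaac
rpl1603: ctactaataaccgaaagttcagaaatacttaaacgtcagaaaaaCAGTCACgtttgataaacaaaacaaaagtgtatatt
Those of eS26 are *rps2601* (I:236048-236127, minus strand) and *rps2602* (I:2793505-2793584, minus strand).
rps2601: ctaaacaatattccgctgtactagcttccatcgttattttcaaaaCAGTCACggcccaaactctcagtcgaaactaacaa
rps2602: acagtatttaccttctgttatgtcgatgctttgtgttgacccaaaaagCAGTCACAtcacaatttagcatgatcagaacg
Those of eL33 are *rpl35a* (III:540823-540902, minus strand) and *rpl35b* (II:2405999-2406078, minus strand).
rpl35a: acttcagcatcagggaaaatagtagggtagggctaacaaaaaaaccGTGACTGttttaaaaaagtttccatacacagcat
rpl35b: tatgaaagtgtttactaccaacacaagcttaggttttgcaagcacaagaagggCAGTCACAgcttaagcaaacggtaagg
Those of eL34 are *rpl3401* (I:4093819-4093898, minus strand) and *rpl3402* (III:1321248-1321327, plus strand).
rpl3401: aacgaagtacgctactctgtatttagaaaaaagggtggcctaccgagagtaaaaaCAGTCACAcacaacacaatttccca
rpl3402: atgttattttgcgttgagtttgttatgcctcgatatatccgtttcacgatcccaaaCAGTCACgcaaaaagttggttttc
*rpl29*, the most abundant member in wild type cells in rich medium, has the window II:3172213-3172292, plus strand.
rpl29: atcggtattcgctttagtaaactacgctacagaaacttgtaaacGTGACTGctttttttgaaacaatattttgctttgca
In eS26, eL33 and eL34 both copies hold CAGTCAC or its reverse complement and 1 copy of each holds the whole HomolD. In uL13 *rpl1602* holds HomolD, *rpl1603* holds CAGTCAC followed by g, and *rpl1601* holds neither in this window. *rpl29* holds the 7 letters only, as the reverse complement GTGACTG.

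The medians of members with and without these boxes differed little in heat stress and the chaperone mutants, and more in *nmt1:hsf1* cells. With HomolD the median was -0.64 in heat stress, -0.87 in *mas5Δ*, -0.51 in *ssa2Δ* and -1.60 in *nmt1:hsf1* cells, and without it -0.69, -0.85, -0.56 and -1.51. The 10 members without CAGTCAC had medians of -0.68, -0.83, -0.54 and -1.49. With HomolE the medians were -0.66, -0.82, -0.51 and -1.44, and without it -0.65, -0.87, -0.52 and -1.62. The largest of these gaps was that for HomolE in *nmt1:hsf1* cells. There the interquartile range ran from -1.64 to -1.27 with HomolE and from -1.87 to -1.37 without it. The difference was not tested. In wild type cells in rich medium the median level was 2649 FPKM with and 2377 FPKM without HomolD, and 2848 with and 2361 without HomolE.

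Some members share a promoter region. In 4 cases a pair of members lay next to each other and pointed apart, namely *rps1602* and *rpl13*, *rpl701* and *rps1402*, *rpl35* and *rpl902*, and *rps2* and *rps20*. The 2 shortest regions between transcript starts are those of *rpl701* and *rps1402* (II:1792296-1792362, 67 bases) and of *rps1602* and *rpl13* (I:1711083-1711184, 102 bases). They are shown on the plus strand, with capitals as above.
rpl701-rps1402: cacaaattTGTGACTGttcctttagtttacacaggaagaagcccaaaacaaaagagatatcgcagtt
rps1602-rpl13: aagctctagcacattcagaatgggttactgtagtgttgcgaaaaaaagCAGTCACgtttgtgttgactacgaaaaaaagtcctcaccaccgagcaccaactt
Genes on both sides of one region could differ. *rpl701* was at -1.24 and *rps1402* at -2.04 in *nmt1:hsf1* cells, and at -0.62 and -0.65 in heat stress. *rpl13* was at -0.61 and *rps1602* at -1.54 in *nmt1:hsf1* cells, and at -0.44 and -0.58 in heat stress. *rps2* and *rps20* stayed closer, at -1.13 and -1.24 in *nmt1:hsf1* cells and at -0.61 and -0.66 in heat stress.

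The 2 genes of eS26 differed most in heat stress. *rps2601* had 649.5 FPKM in heat-stressed and 1815 in unstressed cells, and *rps2602* 1897 in heat-stressed and 2290.1 in unstressed cells, a difference in log2 ratio of 1.21. They differed in the same direction in every comparison. In *mas5Δ* cells *rps2601* was at -1.06 and *rps2602* at -0.64, in *ssa2Δ* cells at -0.67 and -0.42, and in *nmt1:hsf1* cells at -2.74 and -1.28. The window of *rps2602* holds the whole HomolD and that of *rps2601*, the lower copy, its first 7 letters. The deposited locus of *rps2601* lists 10 genes and that of *rps2602* lists 5, and the part of these other genes in the values was not tested.

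The 2 genes of eL33, a protein of the large subunit, differed most in *ssa2Δ* cells and second most in *mas5Δ* cells. *rpl35a* had 2984 FPKM in *ssa2Δ* and 5101 FPKM in wild type cells (-0.77), while *rpl35b* had 1219.5 against 1353 FPKM (-0.15). In *mas5Δ* cells they were at -1.15 and -0.48, and in *nmt1:hsf1* cells at -1.92 and -1.26. In heat stress *rpl35b*, the copy with the whole HomolD, was the lower one, with *rpl35a* at -0.64 and *rpl35b* at -0.81.

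uS11 was the protein whose smallest difference over the 4 comparisons was largest, 0.36, and its copies also changed places. *rps1401* was at -1.42 and *rps1402* at -0.65 in heat stress. In *mas5Δ* cells *rps1401* was at -0.70 and *rps1402* at -1.07, in *ssa2Δ* cells at -0.29 and -0.65, and in *nmt1:hsf1* cells at -1.15 and -2.04. *rps1401* was thus the lower copy in heat stress and the higher one in the other 3 comparisons.

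Other proteins with large differences between copies were those of eL34, uL3 and L23 in heat stress. *rpl3401* was at -0.56 and *rpl3402* at -1.44, *rpl301* at -0.32 and *rpl302* at -1.12, and *rpl2302* at -0.45 and *rpl2301* at -1.21. The proteins of the last pair are identical. In *mas5Δ* cells uL16 (*rpl1001* at -0.80, *rpl1002* at -1.39), uL1 (*rpl102* at -0.52, *rpl101* at -1.01) and uS19 (*rps1501* at -0.70, *rps1502* at -1.13) stood out. The ratios of the uL3 and uL16 copies are uncertain. Of their 50-base stretches, 66.8% in *rpl301* and 41.3% in *rpl1002* are shared with the other copy. In *ssa2Δ* cells eL30 (*rpl3002* at -0.07, *rpl3001* at -0.57), uL2 (*rpl803* at -0.29, *rpl801* at -0.74) and eS30 (*rps3001* at -0.25, *rps3002* at -0.63) were among those after eL33. In *nmt1:hsf1* cells the largest differences after uL13 and eS26 were in uL30 (*rpl701* at -1.24, *rpl702* at -2.60), eS4 (*rps402* at -1.33, *rps403* at -2.67) and uL22 (*rpl1701* at -1.13, *rpl1702* at -2.27).

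The 3 genes of uL13, a protein of the large subunit, hold the only member above its wild type value in a comparison. *rpl1603* had 49.8 FPKM in *nmt1:hsf1* and 24.2 FPKM in wild type cells, a log2 ratio of 1.04. *rpl1601* had 332 against 1023 FPKM (-1.62) and *rpl1602* 548 against 1427 FPKM (-1.38). In the other 3 comparisons *rpl1603* was below wild type, with 23.6 against 55.8 FPKM in heat stress, 20.6 against 62.7 in *mas5Δ* and 33.5 against 56.6 in *ssa2Δ* cells (-0.76). It was thus more than 2-fold lower in 2 comparisons and more than 2-fold higher in *nmt1:hsf1* cells. It is the least abundant member in wild type cells in both media. Its annotated mRNA of 2640 bases holds a coding part of 594 bases, and it shares its locus with *apl1*, a subunit gene of the AP-2 adaptor complex. *apl1* had 26.9 FPKM in *nmt1:hsf1* and 43.7 FPKM in wild type cells, a log2 ratio of -0.70. In heat stress it was at 0.38, in *mas5Δ* at 0.64 and in *ssa2Δ* cells at 0.46, so its sign was opposite to that of *rpl1603* in all 4 comparisons. The part of *apl1* in the values of *rpl1603* was not tested.

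**Figure D5:**
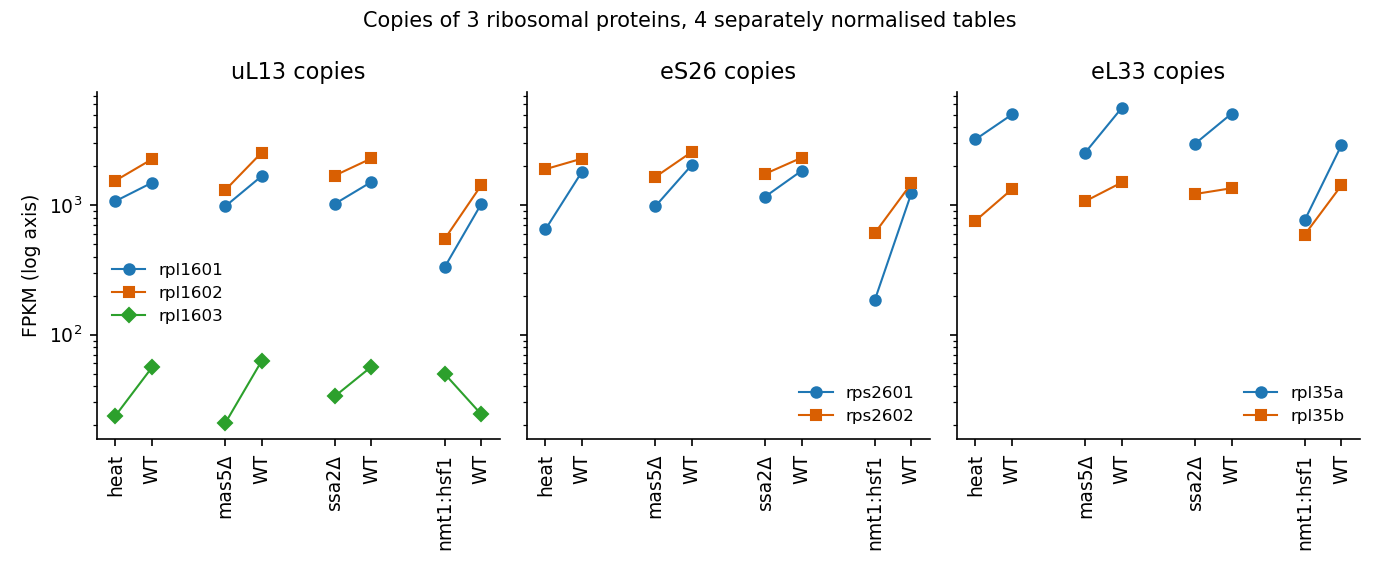
FPKM (log axis) of the copies of uL13, eS26 and eL33, with the altered library left and its wild type library right in each of the 4 separately scaled comparisons. All lines but that of *rpl1603* in *nmt1:hsf1* cells run upward to wild type, and *rpl1603* has at most 62.7 FPKM throughout.

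Medians differed little with gene structure in heat stress, and more in *nmt1:hsf1* cells. Introns were annotated in 68 of the 131 members (51.9%) and in 48.3% of all protein-coding genes, and the median coding length was 450 bases against 1137. Members with an intron had a median of -0.64 in heat stress, -0.83 in *mas5Δ*, -0.52 in *ssa2Δ* and -1.46 in *nmt1:hsf1* cells, and those without -0.66, -0.88, -0.52 and -1.62. The 20 genes that are the only copy of their protein had medians of -0.57, -0.81, -0.51 and -1.31, against -0.66, -0.87, -0.52 and -1.62 for the 111 with copies. By chromosome the medians in *nmt1:hsf1* cells were -1.60 for I, -1.54 for II and -1.55 for III.

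Genes that work beside these proteins were taken from lists. The P-stalk, whose acidic proteins call translation factors to the ribosome, had 7 genes, all below wild type in each comparison. Their medians were -0.78 in heat stress, -0.98 in *mas5Δ*, -0.66 in *ssa2Δ* and -1.82 in *nmt1:hsf1* cells. More than 2-fold lower were 1, 2, 0 and 7 of them, against 10.3%, 5.15%, 4.14% and 16.7% of all genes. *rpp203* was lowest in *nmt1:hsf1* cells, at -3.32, and its deposited locus lists 4 genes. The 4 ubiquitin fusion genes, which code for ubiquitin joined to a ribosomal protein, were below wild type throughout, with medians of -0.56, -0.82, -0.37 and -1.38. Of these 4, 3 were more than 2-fold lower in *nmt1:hsf1* cells, against 16.7% of all genes.

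Of 7 elongation factor genes 6 were below wild type in each comparison, with medians over all 7 of -0.66, -0.69, -0.25 and -1.10. The exception was *tef103*, a gene of the factor that brings aminoacyl-tRNA to the ribosome, at 0.34, 0.02, 0.14 and 0.28. *tef101* and *tef102* are genes of the same factor, and the loci of *tef101*, *tef102* and *tef103* list 2, 3 and 2 genes. Whether these copies share reads was not tested, nor was it for *eft201* and *eft202*, both genes of another elongation factor. The ratios of these copies are thus uncertain. *tef3*, the gene of an elongation factor of fungi, was more than 2-fold lower in heat stress (-1.23). In *nmt1:hsf1* cells 4 of the 7 were. Of all genes 10.3% were that much lower in heat stress and 16.7% in *nmt1:hsf1* cells. The 8 core genes of the box C/D and box H/ACA particles, which guide the modification of ribosomal RNA, were all below wild type, with medians of -1.10, -0.77, -0.60 and -1.18. Of these 8 genes 4 were more than 2-fold lower in heat stress and 5 in *nmt1:hsf1* cells, against 10.3% and 16.7% of all genes. *gar1*, a protein of box H/ACA particles, was at -1.72 in heat stress and -1.49 in *nmt1:hsf1* cells, and its locus lists 3 genes.

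Genes for the chaperones that escort new ribosomal proteins, named mostly from budding yeast, were less uniform. Their 7 genes had medians of -0.81, -0.59, -0.39 and -0.36. More than 2-fold lower were 3, 1, 0 and 0 of them, against 10.3%, 5.15%, 4.14% and 16.7% of all genes. The 7 include *nap1* and *nap2*, annotated as a histone chaperone and a nucleosome assembly protein. The gene of the uL3 escort Rrb1 was at -1.82 in heat stress and -0.43 in *nmt1:hsf1* cells, and its locus lists 3 genes. The gene of the uL4 escort Acl4 was at -1.24 in heat stress and 2.08 in *nmt1:hsf1* cells, and its locus lists 4 genes.

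The 75 nuclear genes of mitochondrial ribosomal proteins with a ratio had medians of -0.04 in heat stress, -0.03 in *mas5Δ*, -0.21 in *ssa2Δ* and -0.32 in *nmt1:hsf1* cells, against 0.01, 0.04, 0.05 and 0.09 over all genes. They lay near the median of all genes in heat stress and *mas5Δ* cells, and below it in *ssa2Δ* and *nmt1:hsf1* cells. More than 2-fold lower were 1, 0, 2 and 12 of the 75, against 10.3%, 5.15%, 4.14% and 16.7% of all genes. More than 2-fold higher were 0, 0, 0 and 5, against 14.1%, 7.25%, 10.9% and 27.1% of all genes. The cytosolic members, at -0.65, -0.86, -0.52 and -1.56, lay lower at the median in each comparison. Among 11 genes of TOR signalling and of factors tied to ribosomal protein transcription the medians were -0.11, 0.09, 0.12 and 0.30. None of these 11 passed 2-fold in heat stress or the chaperone mutants. In *nmt1:hsf1* cells *tor1*, the kinase of TOR complex 2, was at 2.40 and *sck1*, an S6 kinase-like kinase, at 1.45. *psk1*, which phosphorylates the ribosomal protein eS6, was at -1.66. The loci of *sck1* and *psk1* list 2 genes each.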

How the data were processed

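PolyA RNA of 6 conditions was read as 50-base single-end reads, 1 library each. The submitters' processing notes name FastQC, TopHat and Cuffdiff. Versions, genome build and use of strand are not given in the sources used here. The deposited tables, 1 per comparison, hold FPKM values that the authors computed and scaled within each table. They also hold the authors' log2 fold changes, p-values and q-values, which were not used except to check the direction of the columns. FPKM steps did not give whole reads, so the depth is unknown.

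No pseudocount was added when log2 ratios were taken from the deposited values, and genes at 0 in either library of a comparison had none. A gene was called when it passed 2-fold. No p-value was computed. Members matched RefSeq genes by identifier, and all 131 deposited loci overlapped the RefSeq gene, while 91 shared an end with its mRNA. Python 3.11.15, numpy 2.4.6, pandas 2.3.3, scipy 1.17.1, Biopython 1.88 and matplotlib 3.10.9 were used, and the ratios and counts were tested on simulated data. Genes named are the 5 lowest and the 5 highest log2 ratios per comparison, the 5 proteins whose copies differ most in each, the 5 highest and the 5 lowest levels, the proteins whose copies differ in all comparisons, genes of the related lists and the altered genes. One member that this rule names is not reported here. Other members named, such as neighbours and the rest of those not past 2-fold, were chosen after their values were seen. The members and lists were chosen with earlier results of these data known. Of 8 genes listed as escorts 7 were matched, and of 76 mitochondrial ribosomal protein genes 75 had ratios. A further planned escort, *bcp1*, was dropped from the list. Alternatives were other fold limits, pseudocounts, filters, centring, member rules and sums, and wild type in minimal medium as the reference.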

Additional observations from a re-analysis of the deposited data

Results flagged for a closer look

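*rpl1603*, a gene of uL13, stood out because its log2 ratio was below 0 in 3 comparisons and above 0 in the fourth. It was at -1.24 in heat stress, -1.60 in *mas5Δ*, -0.76 in *ssa2Δ* and 1.04 in *nmt1:hsf1* cells. With 1 library per condition the difference between these comparisons was not tested.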

How the results depend on the processing

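No paired analysis was possible because each condition has 1 library and no replicate numbers are shared, and for the same reason no replicate could be left out. The count of members more than 2-fold lower (14 under heat, 22 in *mas5Δ*, 0 in *ssa2Δ*, 124 in *nmt1:hsf1*) depended on the limit. At 1.5-fold 88 members passed in heat stress, 126 did in *mas5Δ* and 44 in *ssa2Δ*, against 21.2%, 14.3% and 11.4% of all genes. At 3-fold 0 passed in heat stress, 1 in *mas5Δ* and 62 in *nmt1:hsf1*, against 3.92%, 1.7% and 7.97% of all genes. Among the 77 members alone in their locus it was 6 in heat stress, 8 in *mas5Δ* and 75 in *nmt1:hsf1*. Fewer genes were counted there, but the share also fell. In heat stress it was 7.79% against 10.7% of all members, and in *mas5Δ* 10.4% against 16.8%. Of all genes 10.3% were more than 2-fold lower in heat stress and 5.15% in *mas5Δ*. The share of members alone in their locus was thus below that of all genes in heat stress. With wild type in minimal medium as the reference, chosen after seeing the data, the count was 1 in heat stress and 0 in *mas5Δ*. Of all genes 10.2% and 3.95% were. The median log2 ratio was then -0.16 under heat, 0.031 in *mas5Δ* and 0.12 in *ssa2Δ*. As for the share of summed FPKM, the log2 ratio moved to -0.58 in heat stress without the 10 highest other genes of each library, against -0.76 with them, and to -0.96 in *nmt1:hsf1* among genes alone in their locus, against -1.10. The cause was not tested. The other 82 alternative values of medians, counts, copy differences and shares stayed within 0.1 on the log2 scale or within 1.5 times the count. Of the ratios of single members, 2087 stayed within 0.1 and 9 moved further, all with a pseudocount of 10 FPKM. The unknown depth limits the genes of low level, *rpl1603* first.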
